A study of Mus musculus with 21 samples.

Results

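*Krt6a*, *Krt6b*, *Krt16* and *Krt17* encode the stress or wound keratins of the epidermis. They were chosen by gene symbol, 4 of the 55487 genes in the count table of the skin libraries, and all 4 had enough counts to be tested among 19101 genes. Their RNA was followed across wild-type (WT) skin, nonlesional (NL) skin and lesional (L) skin of mice transgenic (TG) for *Ifnk*, the gene of the epidermal type I interferon IFN-κ.

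Keratins are the intermediate filament proteins of epithelia, and a filament is built from pairs of a type II and a type I keratin. Basal keratinocytes pair *Krt5* with *Krt14*, and differentiating suprabasal keratinocytes pair *Krt1* with *Krt10*. In healthy skin the type II keratins KRT6A and KRT6B and the type I keratins KRT16 and KRT17 are largely kept to hair follicles, nails, glands and footpads. After wounding, barrier loss or inflammation they appear in the epidermis between the follicles, and they are widely used as markers of hyperproliferative epidermis, psoriatic plaques among them.

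The skin set held 3 WT libraries (replicates 8 to 10), 2 TG NL libraries (replicates 2 and 3) and 4 TG L libraries (replicates 4 to 7), all untreated, from BALB/c mice aged 12 months. In TG mice *Ifnk* is driven by the *Krt14* promoter, so the transgene is placed in keratinocytes. By label, L skin differs from NL skin in the presence of a lesion. The paper took lesions wherever they were present, and nonlesional skin from the back and from sites comparable to those of the lesions. L and NL libraries also differed in the summed RNA of muscle, fat and hair follicle genes, as given below. These differences cannot be told apart from the lesion itself. The labels put all 9 libraries in batch 1 and do not give the body site, sex or mouse of a library, and they do not say whether the samples came from separate animals, so p-values measure the spread between these samples. A second tissue, inguinal lymph nodes of WT and TG mice with or without UVB at 250 mJ/cm2, gave 12 libraries that were used here only as a check of tissue. Skin libraries held 40499078 to 56511276 counts. All 10 genes listed as epidermis markers were tested, and together they gave 12768 to 31648 CPM, the counts of a gene relative to the TMM-scaled size of its library, in every skin library. *Ifnk* itself had 0 counts in each WT library, 6 and 0 in the NL libraries and 14, 11, 5 and 8 in the L libraries, so the library labelled NL replicate 3 showed no count of the targeted gene.

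The 4 genes lie in the 2 keratin clusters of the mouse genome, all on the minus strand (GRCm38, GENCODE annotation). *Krt6a* (ENSMUSG00000058354, chr15:101689910-101694307) and *Krt6b* (ENSMUSG00000023041, chr15:101676023-101680287) are 9622 bases apart in the type II cluster. *Krt16* (ENSMUSG00000053797, chr11:100246091-100248902) and *Krt17* (ENSMUSG00000035557, chr11:100256217-100261029) are 7314 bases apart in the type I cluster. The transcripts of this family are alike in sequence, which bears on how reads are divided between them. Of all stretches of 151 bases, the length of a read, 16.3% of those in *Krt6a*, 18.6% in *Krt6b* and 18.3% in *Krt16* also occurred in another gene, and none in *Krt17*. The shared stretches of *Krt6b* were those of *Krt6a*, so the split of counts between this pair rests partly on the estimate made by the counting program.

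Of the type II genes, *Krt6a* stood at 138, 236 and 87.0 CPM in WT replicates 8, 9 and 10, at 255 and 274 CPM in NL replicates 2 and 3, and at 1020, 789, 1303 and 321 CPM in L replicates 4 to 7. *Krt6b* started far lower, at 11.6, 17.8 and 5.96 CPM in WT and 38.1 and 19.0 CPM in NL skin, and reached 749, 246, 1109 and 73.1 CPM in L skin. For both genes every L library lay above every NL library and every NL library above every WT library, while L replicate 7 was the lowest of the L libraries and L replicate 6 the highest.

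Of the type I genes, *Krt16* stood at 11.9, 15.2 and 5.81 CPM in WT, 54.7 and 25.7 CPM in NL and 686, 269, 1338 and 87.6 CPM in L skin. *Krt17* was already abundant in WT skin, at 494, 480 and 370 CPM, and gave 864 and 924 CPM in NL and 1431, 2343, 1632 and 1275 CPM in L skin. *Krt16* followed the same order of L libraries as *Krt6b*, whereas *Krt17* was highest in L replicate 5, though also lowest in L replicate 7. No library of one group overlapped with another group for any of the 4 genes, and the complete order of WT below NL below L was seen in 5.96% of all tested genes. In bulk tissue, a change in the number of cells that make a keratin and a change in its RNA per cell cannot be told apart.

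**Figure D1:**
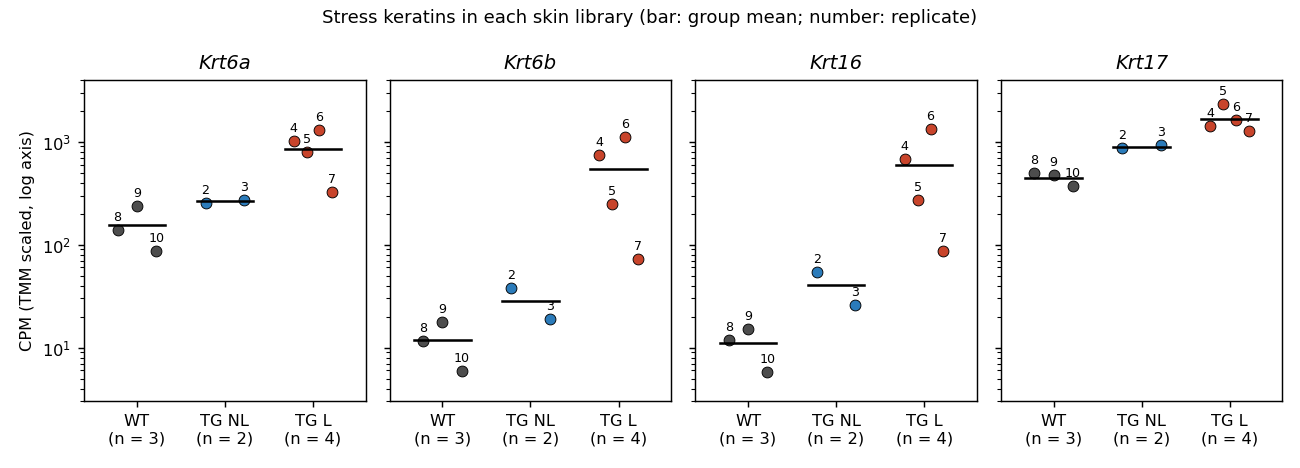
CPM (TMM scaled, log axis) of *Krt6a*, *Krt6b*, *Krt16* and *Krt17* in the 3 WT, 2 TG NL and 4 TG L skin libraries. Each point is a library with its replicate number and each bar a group mean; the groups do not overlap for any gene, and *Krt16* in L skin runs from 87.6 to 1338 CPM.

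L skin was first compared with WT skin. All 4 genes rose, against 23% of all tested genes called higher in this comparison, and every L library was above every WT library for all 4, against 26% of all genes. *Krt16* averaged 11.0 ± 4.78 CPM in WT (SD, n = 3) and 595 ± 555 CPM in L skin (SD, n = 4) and rose by 5.76 on the log2 scale (SE 1.04; edgeR's quasi-likelihood test with Benjamini-Hochberg adjustment, adjusted p = 0.00345). *Krt6b* averaged 11.8 ± 5.94 and 544 ± 473 CPM and rose by 5.53 (SE 1.04; edgeR adjusted p = 0.0041). The other pair, higher at the start, rose by less. *Krt6a* went from 153 ± 75.5 to 858 ± 415 CPM (log2 fold change 2.48, SE 0.51, edgeR adjusted p = 0.00557), and *Krt17* from 448 ± 67.9 to 1670 ± 472 CPM (log2 fold change 1.90, SE 0.23, edgeR adjusted p = 0.000475). Without L replicate 6 the values fell to 4.98 for *Krt16* and 4.92 for *Krt6b*, both still called. The median of the 4 log2 fold changes was 4.01, beside 0.06 over all tested genes. With the counts of *Krt6a* and *Krt6b* added together before the fit, which removes the question of how their reads were split, the sum rose by a log2 fold change of 3.09 (edgeR adjusted p = 0.00564).

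The comparison of L with NL skin sets lesions against nonlesional skin of the same genotype. That skin is not a normal baseline, since the paper reports more lymphocytes in it than in WT skin. L and NL libraries also differed in muscle, fat and hair follicle RNA. *Krt6b* (log2 fold change 4.25, SE 1.17, edgeR adjusted p = 0.0326), *Krt16* (3.89, SE 1.13, adjusted p = 0.0392) and *Krt17* (0.90, SE 0.26, adjusted p = 0.0346) rose, 3 of 4 against 13.2% of all tested genes called higher. *Krt6a* had a log2 fold change of 1.70 (SE 0.58) and did not pass the threshold (edgeR adjusted p = 0.0633), although all 4 L libraries lay above both NL libraries, as did 24.7% of all genes. These calls rest on 2 NL libraries. Without NL replicate 2 or without NL replicate 3 none of the 4 genes passed, without L replicate 6 only *Krt6b* did (3.64, with *Krt16* at 3.11), and without L replicate 7 all 4 did. Without NL replicate 2 the values were 4.84 for *Krt6b* and 4.53 for *Krt16*. Without L replicate 4, *Krt16* missed the threshold (edgeR adjusted p = 0.0502). Added together, *Krt6a* and *Krt6b* had a log2 fold change of 2.26 (edgeR adjusted p = 0.0515).

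NL skin of TG mice was compared with WT skin to see whether the stress keratins differed in TG skin outside the lesions. None of the 4 was called by edgeR, as none of the 19101 genes was (0%). *Krt17* alone had an unadjusted p under 0.05, as did 7.67% of all tested genes, and DESeq2, which called 63 genes in this comparison, called none of the 4. The 4 genes nevertheless had both NL libraries above all 3 WT libraries, which 18.6% of all genes showed. The log2 fold changes were 1.87 (SE 0.96) for *Krt16*, 1.28 (SE 0.97) for *Krt6b*, 1.00 (SE 0.26) for *Krt17* and 0.79 (SE 0.55) for *Krt6a*, with edgeR adjusted p-values of 0.698, 0.772, 0.503 and 0.754. The epidermal keratins had log2 fold changes of 0.81 for *Krt5*, 0.72 for *Krt14*, 0.80 for *Krt1* and 0.80 for *Krt10*, none of which was called. Over the 9 tested interfollicular keratins the median was 0.76, with 8 positive and *Krt2* at -0.75. All 10 epidermis markers had positive log2 fold changes between NL and WT skin (median 0.73), and their part in the values of the stress keratins was not tested.

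To compare the genes with each other, CPM was divided by the length of their exons. *Krt17* had the highest level per kilobase of the 4 in all 9 libraries. In WT skin the mean was 289 ± 43.8 CPM per kilobase for *Krt17*, 63.5 ± 31.2 for *Krt6a*, 7.03 ± 3.06 for *Krt16* and 5.28 ± 2.66 for *Krt6b*. In L skin the means were 1077 ± 304 for *Krt17*, 380 ± 355 for *Krt16*, 355 ± 172 for *Krt6a* and 243 ± 212 for *Krt6b*. *Krt6a* exceeded *Krt6b* in each WT library and in each L library. It exceeded *Krt16* in each WT library too, whereas in L replicates 4 and 6 *Krt16* was the higher. By mean CPM *Krt16* moved from rank 9844 of the 19101 genes in WT skin to rank 194 in L skin, *Krt6b* from 9614 to 219, *Krt6a* from 1096 to 115 and *Krt17* from 262 to 42.

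The make-up of the stress keratin RNA differed between libraries. *Krt17* provided 72.9% to 84.9% of the 4-gene level per kilobase in WT skin and 78.0% and 81.2% in NL skin. In L skin its share was 43.6% in replicate 4, 71.3% in replicate 5, 35.8% in replicate 6 and 78.8% in replicate 7. L replicate 7 was thus within the range of WT skin in its share of *Krt17*, while L replicates 4 and 6 held the largest shares of *Krt16* (20.7% and 29.1%) and *Krt6b* (15.8% and 16.9%). In total, the 4 genes took 0.0452% to 0.0717% of all counts in WT libraries, 0.121% and 0.124% in NL libraries and 0.378%, 0.365%, 0.577% and 0.191% in L replicates 4 to 7.

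**Figure D2:**
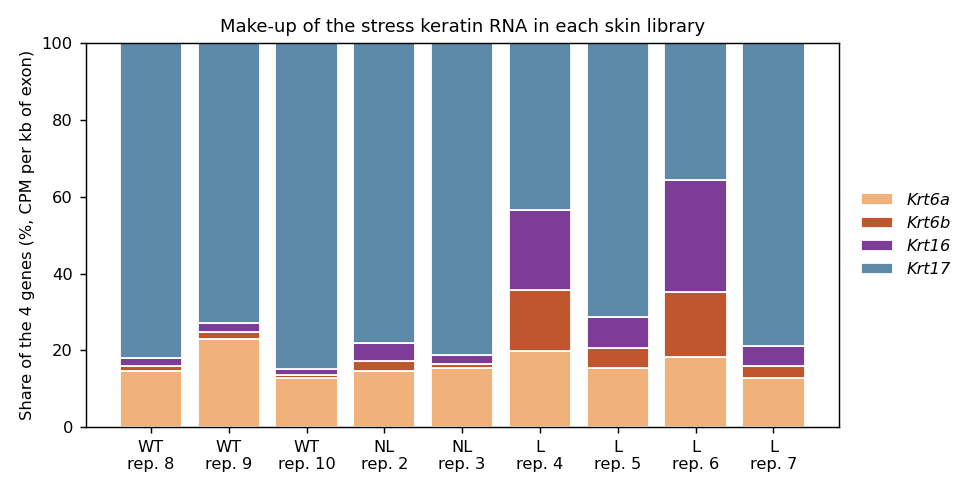
Share of each stress keratin in the summed level of the 4 genes (%, CPM per kilobase of exon), with a bar for each of the 9 skin libraries. *Krt17* holds 35.8% of L replicate 6 and 84.9% of WT replicate 10, and *Krt16* and *Krt6b* are widest in L replicates 4 and 6.

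Ratios of counts within a library do not depend on how libraries are scaled. They were compared between the 4 L libraries and the 5 nonlesional libraries of both genotypes (3 WT, 2 NL) by an exact permutation test (two-sided, smallest possible p 0.0159), with adjustment over the 9 ratios examined. 6 of the 9 ratios passed, each with all 4 L libraries above all 5 others, at the smallest possible p of 0.0159 and an adjusted p of 0.0238. Among single genes, every L library was above every WT library in 26% and above every NL library in 24.7%. How often ratios of other genes would pass was not tested. *Krt16* over *Krt17* was higher in L skin by 3.01 on the log2 scale (95% interval 0.99 to 5.01), and *Krt6b* over *Krt6a* by 2.43 (1.25 to 3.52). In counts, *Krt6b* made up 7.75%, 7.04% and 6.41% of the *Krt6a* and *Krt6b* pair in WT, 13.0% and 6.48% in NL and 42.3%, 23.8%, 46.0% and 18.5% in L skin. *Krt16* over *Krt6a* (2.41) and *Krt6b* over *Krt17* (3.03) passed as well. So *Krt16* and *Krt6b* rose by more than *Krt6a* and *Krt17* did, whichever pair was set against which. These 4 ratios share their genes and are not separate results.

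*Krt16* and *Krt6b*, a type I and a type II gene on different chromosomes, kept nearly the same ratio to each other. *Krt16* varied 230.3-fold and *Krt6b* 186-fold between the lowest and the highest of the 9 libraries, yet the log2 ratio of their counts stayed between -0.23 and 0.52. It was 0.04, -0.23 and -0.04 in WT, 0.52 and 0.43 in NL and -0.13, 0.13, 0.27 and 0.26 in L skin, so that both NL libraries lay above the other 7. The difference between L and pooled nonlesional skin was -0.01 (95% interval -0.475 to 0.396; exact permutation p = 0.952). This value averages opposite shifts, 0.21 against WT libraries alone and -0.34 against NL libraries alone. For *Krt6a* over *Krt17* the difference from pooled nonlesional skin was 0.60 (-0.39 to 1.56; exact permutation p = 0.175). For the summed type II over the summed type I genes it was 0.70 (-0.26 to 1.61; exact permutation p = 0.159). These intervals leave room for differences of more than 1 log2 unit in the last pair of ratios.

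**Figure D3:**
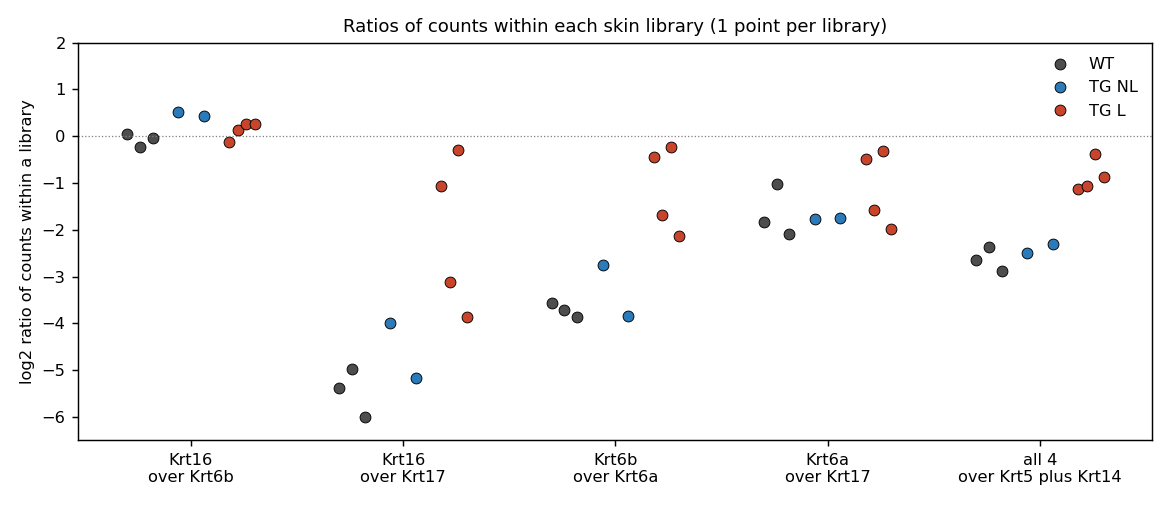
Log2 ratio of counts within a library for 5 of the 9 ratios, with a point for each WT, TG NL and TG L skin library. *Krt16* over *Krt6b* lies between -0.23 and 0.52 in all 9 libraries, and the L libraries lie above all others for *Krt16* over *Krt17*, *Krt6b* over *Krt6a* and the 4 genes over *Krt5* plus *Krt14*.

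Set against the keratins that every epidermis makes, the stress keratins were again higher in L skin. The summed counts of the 4 genes were 0.136 to 0.194 times those of *Krt5* plus *Krt14* in WT libraries, 0.177 and 0.201 times in NL libraries and 0.458, 0.479, 0.770 and 0.551 times in L libraries. The NL and WT libraries overlapped, and the L libraries lay apart from both. The log2 difference between L and nonlesional skin was 1.68 (95% interval 1.25 to 2.14) over *Krt5* plus *Krt14* and 1.68 (1.22 to 2.13) over *Krt1* plus *Krt10*, both at an exact permutation p of 0.0159. L replicate 7, the lowest L library in all 4 stress keratins, was also the lowest in *Krt5*, *Krt14*, *Krt1* and *Krt10*. By its ratio to *Krt5* plus *Krt14* it stood above L replicates 4 and 5. Over *Krt1* plus *Krt10* it stood at 0.406, between L replicate 4 (0.282) and L replicate 5 (0.425).

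Keratins listed as relatives of the members in place or sequence gave a point of reference. *Krt75*, a type II keratin of the companion layer of the hair follicle, stood at 45.6, 26.8 and 38.9 CPM in WT, 74.6 and 74.5 CPM in NL and 241, 372, 404 and 638 CPM in L skin. It rose in L over WT (log2 fold change 3.48, edgeR adjusted p = 0.000257) and over NL skin (2.47, adjusted p = 0.00399). Among the L libraries it was highest in replicate 7 and lowest in replicate 4. The list held 5 relatives, *Krt75*, *Krt5*, *Krt14*, *Krt79* and *Krt42*, and left out *Krt1* and *Krt10*. Of these 5, 3 rose over WT skin and 1 over NL skin, beside 23% and 13.2% of all tested genes. *Krt42*, with at most 55 counts in a library, was called in neither. *Krt14* (1.41, edgeR adjusted p = 0.0131), *Krt1* (1.90, adjusted p = 0.00529) and *Krt79* (1.94, adjusted p = 0.00519) rose in L over WT but were not called over NL skin. *Krt5* (0.32, adjusted p = 0.349) and *Krt10* (0.48, adjusted p = 0.284) did not pass in L over WT skin.

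Across the whole family, 46 other keratin genes were tested. L skin had 30 of them higher and 3 lower than WT skin (23% and 20.2% of all tested genes), and 25 higher and 3 lower than NL skin (13.2% and 11.8% of all genes), while 0 were called between NL and WT skin by edgeR (11 had an unadjusted p under 0.05, and DESeq2 called 0). All 8 inner root sheath keratins and all 15 tested hair shaft keratins rose in both L comparisons. *Krt71* of the inner root sheath had a log2 fold change of 13.37 over WT, and *Krt74*, with no WT library above 3 counts, was at least 7.95-fold higher. *Krt34* of the hair shaft was at least 7981-fold higher by the same floor of 3 counts per library, and *Krt36* had the smallest log2 fold change of that group, 3.43. The stress keratins ranked 23 (*Krt16*), 24 (*Krt6b*), 29 (*Krt6a*) and 31 (*Krt17*) of the 50 keratin genes by log2 fold change over WT skin. Of 9 tested interfollicular keratins 3 rose and 1 fell over WT, from *Krt15* (-0.93) to *Krt2* (4.23), and of 6 simple epithelial keratins 1 rose (*Krt23*) and 1 fell (*Krt19*, -2.87). The value of *Krt2* rests on L replicate 4 (32.5 CPM, beside 0.617, 1.70 and 3.01 CPM in L replicates 5 to 7). WT libraries held 0.214 to 0.775 CPM, a range that includes only L replicate 5. Without L replicate 4 the fold of the means drops from 18.8 to 3.53.

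**Figure D4:**
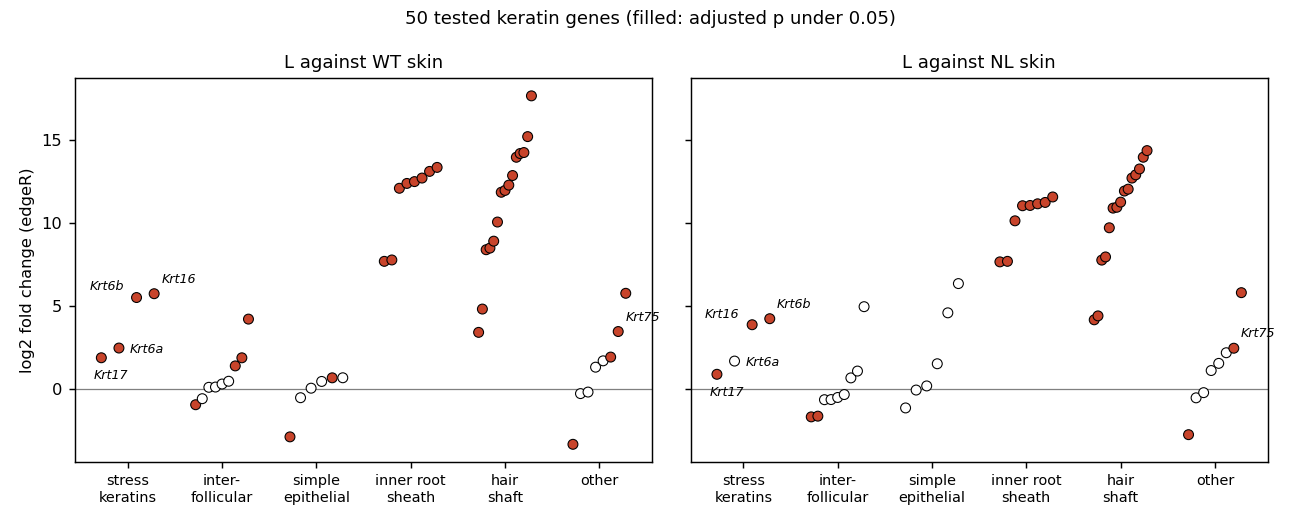
Log2 fold change by edgeR of the 50 tested keratin genes in L against WT skin (left) and L against NL skin (right), by class; filled points have an adjusted p under 0.05. The stress keratins lie between 1.90 and 5.76 over WT skin, below most hair keratins, whose fitted values depend on a prior count where a group had few or no counts.

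The keratins of the hair follicle moved with the same groups as the stress keratins but not in the same order of libraries. Summed over the 8 genes, inner root sheath keratins gave 2.50 to 3.75 CPM in WT, 2.60 and 9.22 CPM in NL and 3294, 7615, 11065 and 15264 CPM in L replicates 4 to 7. L replicate 7 was thus the highest L library for these genes and the lowest for all 4 stress keratins. L replicate 4 was the lowest L library for these genes and the second highest for *Krt6b* and *Krt16*. Hair shaft keratins summed to 7.05 to 9.22 CPM in WT, 7.78 and 11.7 CPM in NL and 2187 to 7113 CPM in L skin. Of 12 follicle genes outside the keratins, 11 rose over WT skin (beside 23% of all tested genes), up to *Gprc5d* (at least 3022-fold). *Sox9* (1.43) was called over WT only, and *Gata3* did not pass over WT (0.20) and fell over NL skin by 0.58 on the log2 scale. Follicle cells also make *Krt6a*, *Krt16*, *Krt17* and *Krt75*, and the part of the follicle in the values of the stress keratins was not tested.

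Genes that stressed epidermis is known to make alongside these keratins were read from a list chosen with earlier results of these data known. Of 16 tested, 15 rose in L over WT skin and 14 over NL skin, beside 23% and 13.2% of all tested genes. The median log2 fold change was 5.68 over WT (4.04 with the 5 genes whose WT libraries were at the floor set to their bounds). *Serpinb3a*, a serine protease inhibitor of squamous cells, was at least 85.9-fold higher, and *Lcn2*, an iron-scavenging lipocalin, had the smallest value (1.18, edgeR adjusted p = 0.224). The epidermal defensin *Defb14* was called over WT only. The summed level was 142 to 185 CPM in WT, 264 and 313 CPM in NL and 1702, 1868, 1473 and 1098 CPM in L replicates 4 to 7, so L replicate 7 was the lowest L library here too.

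Of 16 listed cytokines that drive or accompany epidermal inflammation 13 were tested. Of these 10 rose over WT and 6 over NL skin, beside 23% and 13.2% of all tested genes. The values ran from *Tslp* (-0.32, edgeR adjusted p = 0.664) to *Il24* (at least 11.0-fold, or 3.84-fold without L replicate 4; adjusted p = 0.0527, not called). L replicate 4 held the most cytokine RNA, 605 CPM in sum, beside 103 to 170 CPM in the other 3 L libraries and 17.0 to 35.4 CPM in WT and NL libraries. Most of that sum was *Il1b*, at 366 CPM in L replicate 4 and 11.8, 17.4 and 13.3 CPM in L replicates 5 to 7. Of 10 ligands and receptors of the EGF receptor family 7 rose and 2 fell over WT skin, with *Hbegf*, a ligand released in wounds, highest (2.01, adjusted p = 0.0306; the fold of its means was 4.02, and 2.55 without L replicate 6) and *Egf* lowest (-3.30, adjusted p = 0.00895). Over NL skin 2 rose and 2 fell. Of all tested genes 23% rose and 20.2% fell over WT skin, and 13.2% rose and 11.8% fell over NL skin.

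Of 16 transcription factors linked to keratinocyte stress, growth or differentiation, 6 rose over WT and 4 over NL skin. Of all tested genes 23% and 13.2% did. The median log2 fold change of the list was 0.36 over WT and 0.09 over NL skin, beside 0.06 and 0.03 over all tested genes. *Gli1*, a target and effector of hedgehog signalling, had the largest log2 fold change (2.27, edgeR adjusted p = 0.00094) and *Jun* the smallest (-0.27, adjusted p = 0.62). *Myc* (0.44) was called over WT but not over NL skin. Of 7 targets of the oxidative stress factor NRF2, 4 rose in each L comparison, from *Nqo1*, which fell over WT by 0.86 on the log2 scale, to the cystine transporter *Slc7a11* (4.20). Of 11 wound edge genes 3 rose over WT skin and 1 over NL skin, shares close to the 23% and 13.2% of all tested genes. The matrix protease *Mmp10* was at least 19.7-fold higher over WT, and at least 4.86-fold without L replicate 4. *Mmp10* and *Mmp13* were called over WT skin only, and *Itga5* had the smallest value (-0.41, adjusted p = 0.173).

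Cycling cell genes all rose, 12 of 12 in both L comparisons, beside 23% of all tested genes over WT and 13.2% over NL skin. Their median log2 fold change over WT skin was 3.04, with values from 2.25 (*Cenpf*) to 4.02 (*Bub1*). Their sum was 43.1 to 75.2 CPM in WT, 82.6 and 82.5 CPM in NL and 288, 274, 544 and 637 CPM in L replicates 4 to 7, so the L library with the lowest *Krt16* had the highest level of cycling genes. No listed gene was called between NL and WT skin by edgeR (0 of 184; 34 had an unadjusted p under 0.05, beside 7.67% of all tested genes, and DESeq2 called 1, *Tgm1*, of the 63 genes it called in all).

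**Figure D5:**
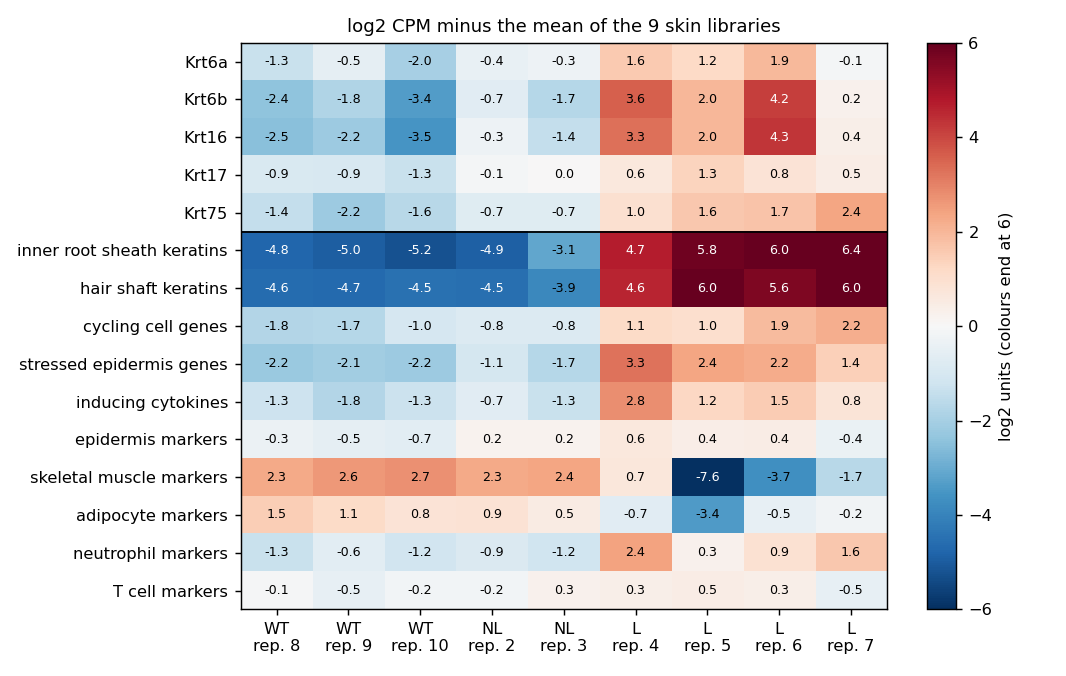
Log2 CPM minus the mean of the 9 skin libraries for the 4 stress keratins and *Krt75*, and the mean of the same quantity over the tested genes of 10 lists, by library. Inner root sheath keratins reach 6.39 in L replicate 7, in which *Krt6a* is near its mean, and skeletal muscle markers fall to -7.58 in L replicate 5.

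The L libraries also differed from the rest in tissue outside the epidermis. Skeletal muscle markers summed to 27838 to 39021 CPM in WT and NL libraries and to 8325, 25.9, 410 and 1695 CPM in L replicates 4 to 7, with 1 of 8 genes (*Acta1*) called lower over WT. Adipocyte markers summed to 12719 to 22051 CPM in WT and NL and 1006 to 6815 CPM in L libraries, with 4 of 8 called lower. Of all tested genes 20.2% were called lower over WT skin. With library sizes and scaling taken from all genes except keratins, keratin-associated proteins and muscle and fat markers, the same 4 stress keratins passed over WT skin and the same 3 over NL skin. Of the other marker lists over WT skin, 4 of 10 epidermis markers (*Sfn* highest, 1.97, and *Dsp* lowest, 0.21) rose. So did 2 of 5 sebaceous gland markers (*Elovl3*, 5.32), 2 of 4 neutrophil markers (*Camp*, at least 7.30-fold, and 4.85-fold without L replicate 7) and 2 of 6 T cell markers, against 23% of all tested genes. *Camp* had only 5 to 58 counts in the L libraries. All 4 neutrophil markers had positive log2 fold changes, and the mean of *Cxcr2* went from 0.476 CPM in WT to 13.8 CPM in L skin. The T cell markers ran from *Cd247* (-0.57, not called) to *Lck* (1.59), with 3 of the 6 positive and *Cd2* called over WT only. In these lists *Scd3* of the sebaceous gland fell (-1.93), and of 6 fibroblast markers *Dcn* fell (-0.89).

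The genes whose profile lay nearest to that of each member were found by the root mean square difference of centred log2 CPM over the 9 skin libraries. Of all tested genes, *Krt6b* was the nearest to *Krt16* and *Krt16* the nearest to *Krt6b*, at 0.238 log2 units. After it came *Ubd*, a ubiquitin-like modifier, *Cxcl11*, an interferon-induced chemokine, and *Gm15056*, at 0.614 to 0.728 from *Krt6b* and 0.768 to 0.789 from *Krt16*. *Krt6a* lay nearest to *Aqp3*, the water and glycerol channel of the epidermis (0.300), *Gpr55* (0.336) and *2310046K23Rik* (0.355), and *Krt17* to *Calcb* (0.178), the vitamin D receptor gene *Vdr* (0.189) and the kinase gene *Mapk13* (0.190). Between members, *Krt6a* and *Krt17* were 0.617 apart and *Krt6b* and *Krt17* 1.85 apart. All points share the same 9 libraries and differ in group, so likeness here includes the difference between groups.

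A further gene of the type II cluster was picked out after its values were seen. *Gm5478* (ENSMUSG00000095241, chr15:101643020-101647380), annotated as protein-coding, shares stretches of read length with *Krt6a*. It had 3, 0 and 2 counts in WT, 41 and 0 in NL and 1513, 300, 2218 and 136 in L libraries, the same order of L libraries as *Krt6a*, *Krt6b* and *Krt16*. Its log2 fold change was 9.00 over WT (edgeR adjusted p = 0.00496) and 5.70 over NL skin (adjusted p = 0.0378). Whether reads of *Krt6a* were assigned to it was not tested. The counts of *Gm11597*, an unprocessed pseudogene that shares such stretches with *Krt16*, were 0 or 1 in all 9 skin libraries.

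In lymph nodes, which hold no keratinocytes, the 4 genes were close to absent. Over the 12 libraries of 27599809 to 36428435 counts, *Krt6a* had at most 1 count, *Krt16* at most 2, *Krt17* at most 3 and *Krt6b* at most 7, the last in an untreated WT library.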

How the data were processed

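Poly-A RNA-seq of skin was analysed. The authors trimmed paired reads of 151 bases (cutadapt 4.8, per the submitters' processing notes), aligned them to GRCm38 with STAR 2.7.8a and deposited the expected counts of RSEM 1.3.3 per gene, as whole numbers without normalization. These estimated counts divide reads that match several genes, which touches *Krt6a*, *Krt6b* and *Krt16*. The reference was Ensembl's, and its annotation release is not given in the sources used here; positions, exon lengths and transcripts came from GENCODE M21.

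Genes were filtered with filterByExpr by group (minimum 10 counts, total 15), scaled by TMM and compared with edgeR 4.0.16 (robust quasi-likelihood F-test, all 9 skin libraries in one fit, R 4.3.3). Benjamini-Hochberg adjustment covered the 19101 genes, and genes with an adjusted p under 0.05 were called. If no library of a group exceeded 3 counts, the fold is given as a lower bound, computed with 3 counts in each of its libraries. Ratios used counts plus 0.5, and their 95% intervals invert the exact permutation test. No 2 libraries of a group were alike within counting noise (chi-square per degree of freedom 45.6 or more). There are no molecular identifiers, so a floor covers counting error only. The fit was tested on simulated data.

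Folds of named list genes without each L library were added after seeing the data. The members, gene lists and alternatives were chosen with earlier results of these data known. Genes named beside the members are those with the largest and smallest log2 fold change in L against WT of each list, *Krt5*, *Krt14*, *Krt1*, *Krt10* and *Krt75*, genes whose call differed between the L comparisons in lists with few of them, and the 3 nearest in profile. *Gm5478*, *Gm11597* and *Tgm1* lie outside this rule, and some genes it covers are not reported here. The hair shaft list holds 16 genes, of which 15 were analysed.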

Additional observations from a re-analysis of the deposited data

How the results depend on the processing

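Over 12 settings with all libraries kept (edgeR as described, DESeq2 1.42.0, RLE and upper-quartile scaling, scaling without keratin, muscle and fat genes, no filter, at least 10 counts in every library, the compared groups alone, no robust estimation, a stricter threshold of 0.01, glmTreat with a minimum log2 change of 1, and *Krt6a* with *Krt6b* summed), all 4 stress keratins stayed called in L over WT skin (3 of 3 when summed) and none in NL over WT skin. Leaving out 1 library gave 4 and 0 in these comparisons. Log2 fold changes over WT then ran from 2.20 to 2.92 for *Krt6a*, 4.92 to 5.94 for *Krt6b*, 4.98 to 6.12 for *Krt16* and 1.69 to 2.01 for *Krt17*.

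In L over NL skin, 3 genes were called. The count was 1 with no filter and 0 with the compared groups alone, at the stricter threshold and with glmTreat, and 0 to 4 with 1 library left out. DESeq2 called 4, with *Krt6a* at an adjusted p of 0.00415. Directions did not change in any of these settings, and the cause of the lost calls was not tested. A fit with an NL library left out assumes that the lone one varies like the other groups.

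Of the ratios, 6 of 9 passed. The count was 0 for 4 L against 3 WT libraries (smallest possible exact permutation p 0.0571) and 0 for 4 L against 2 NL libraries (0.133), where no p can pass, and 0 to 6 with 1 library left out. It was 0 without any L library, where the smallest adjusted p is 0.0536. *Krt16* over *Krt6b* changed sign, to 0.21 against WT libraries alone, and was -0.34 against NL libraries alone. It ran from -0.11 to 0.081 with 1 library left out (0.081 without NL replicate 2, 0.059 without NL replicate 3 and 0.074 without L replicate 4). No paired analysis was possible because the labels do not name the mouse of a library.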
